A study of Mus musculus with 18 samples.

Results

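The genes described here are those for the proteins of the cytosolic ribosome in mouse substantia nigra, the midbrain region that holds dopamine neurons. They were chosen by name, as rows of the deposited table called Rpl or Rps with a number, together with Rpsa, and rows marked as pseudogenes by "-ps" were left out. This gave 86 genes of 55270 in the table, 50 named for the large and 36 for the small subunit. Of these, 82 passed the filter on low values, for which 6 or more of the 18 libraries had to reach 10 normalised reads. The name rule does not reach the stalk proteins Rplp0, Rplp1 and Rplp2 or the fusion gene Fau, and it takes in 12 genes that are not core subunits: 6 paralogues and 6 rows annotated as pseudogenes. The core set thus held 74 genes, all of them tested.

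Bulk poly-A RNA was sequenced from 18 wild-type mice in 3 groups of 6, at 3 months of age and 1 month after the vector was given. The intact group had no vector by its label. The AAV-GFP group carried an adeno-associated virus (AAV) that expresses green fluorescent protein, and the AAV-SIRT3 group carried an AAV for SIRT3, a deacetylase of mitochondria. The promoter of the vector, its serotype, the species of the SIRT3 sequence and the mouse strain are not given in the sources used here. The intact group therefore differs from both others in surgery, virus and transgene together, which cannot be told apart, whereas both other groups had an AAV.

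The libraries held 47182529 to 64728587 reads assigned to genes, and the 3 groups overlapped. The row of mouse Sirt3, the gene the vector is named for, lay at 1733 to 1920 (median 1823) in intact, 1684 to 1936 (median 1756) in AAV-GFP and 1801 to 2041 (median 1953) in AAV-SIRT3 libraries. These ranges overlapped, and the difference did not pass the test against AAV-GFP (log2 fold change 0.13, limma adjusted p = 0.183) or intact (0.09, adjusted p = 0.148). Whether reads from the vector reach this row is not known, since the species of the transgene is not given, so the row neither bears out the label nor speaks to the level of the transgene. For that reason "labelled AAV-SIRT3" is meant wherever the group is named. Summed markers of dopamine neurons were present in every library (35496 to 55032), none of these 8 genes was at 0 throughout, and 1 of them, Slc6a3, was called lower in AAV-GFP against intact. In AAV-SIRT3 against intact, microglia markers were called higher for 5 of 9 genes and thalamus markers for 5 of 8. Pituitary markers were called lower for 4 of 5, endothelial for 3 of 5 (1 higher) and choroid plexus for 2 of 6. Also called were 1 of 5 neuron markers (lower), 1 of 4 GABAergic markers (higher) and 1 of 6 oligodendrocyte markers (higher). In AAV-GFP against intact the counts were 4 of 9 higher for microglia, 2 of 8 higher for thalamus, 1 of 5 higher for astrocytes and 4 of 5 lower for pituitary. Over all genes tested, 21.7% were called in either direction in the comparison of AAV-SIRT3 and 1.84% in that of AAV-GFP. Their part in the ribosomal results was not tested, apart from a fit that held the thalamus markers constant. In bulk tissue, fewer cells of a type and less RNA per cell cannot be told apart.

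The cytosolic ribosome reads mRNA on its small subunit and joins amino acids on its large subunit. Each subunit is built on ribosomal RNA in the nucleolus, and its proteins are needed in equal numbers, so their genes are known for levels that move together. Most of their mRNAs begin with a C followed by a run of pyrimidines, the 5′ terminal oligopyrimidine (TOP) tract, through which mTORC1 and the RNA-binding protein Larp1 control their translation. Neurons use much of their protein output to keep up axons and synapses, and ribosomal protein mRNAs are also found in axons.

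The start of these genes is shown first because the shared tract is the sequence feature that marks the family. The windows below run from 15 bases before to 15 bases from the RefSeq start site, 5′ to 3′ on the coding strand, in build GRCm38.p6. Capitals mark the longest run of at least 8 C or T that lies within 25 bases of that start. Rps6 and Rps9 were chosen for their values in the comparisons, Rps27 for its rise, and Rpl35 and Rpl15 for long runs. Rps10 and Rps15a were chosen as genes called lower relative to the family, and Rpl41 as the highest gene per length. Rpl24 had the largest fold change, and Rpl3l is a muscle paralogue.
Rps6, chr4:86857353-86857382, minus strand: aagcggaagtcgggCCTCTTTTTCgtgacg
Rps9, chr7:3704026-3704055, plus strand: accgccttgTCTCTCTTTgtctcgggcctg
Rps27, chr3:90213634-90213663, minus strand: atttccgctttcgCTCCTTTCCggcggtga
Rpl35, chr2:39005117-39005146, minus strand: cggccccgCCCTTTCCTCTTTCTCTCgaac
Rpl15, chr14:18270972-18271001, minus strand: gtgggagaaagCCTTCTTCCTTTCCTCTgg
Rps10, chr17:27635230-27635259, minus strand: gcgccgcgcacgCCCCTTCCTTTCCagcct
Rps15a, chr7:118116133-118116162, minus strand: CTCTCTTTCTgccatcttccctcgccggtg
Rpl41, chr10:128549154-128549183, minus strand: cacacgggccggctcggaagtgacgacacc
Rpl24, chr16:55966260-55966289, plus strand: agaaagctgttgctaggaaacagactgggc
Rpl3l, chr17:24727811-24727840, plus strand: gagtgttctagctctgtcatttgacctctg
The run covers the annotated start in Rps6, Rps9, Rps27, Rpl35, Rpl15 and Rps10 and lies before it in Rps15a. No run of that length lies near the listed start of Rpl41, Rpl24 or Rpl3l.

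RefSeq promoters were found for 62 of the 86 genes, 61 of them protein-coding. A pyrimidine run as defined above was found in 36 of these 61 (59.0%) and in 27.1% of all 27025 genes with a promoter entry. The letters CCGGAAG, the core bound by ETS factors, occurred on either strand of the window of 250 bases before to 50 after the start in 25 of 61 (41.0%) against 9.93% of all genes. AAGATGG, the YY1 core, occurred in 10 (16.4% against 7.28%), GGGCGG, the GC box, in 37 (60.7% against 38.2%), and TATAAA in 6 (9.84% against 15.7%). Some of these motifs can share letters at their ends, such as the AAG of CCGGAAG and AAGATGG, so the counts are not independent. The median log2 fold change of AAV-SIRT3 against intact was 0.28 in the 35 tested genes with a pyrimidine run and 0.30 in the 24 without one, and this difference was not tested. A match describes letters in a window and not a bound site.

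Small nucleolar RNAs, which guide modification of ribosomal RNA, are often made from introns of these genes. In the annotation, 29 of 78 tested protein-coding members (37.2%) held a snoRNA gene on the same strand, 57 such genes in all, against 236 of 15240 tested protein-coding genes (1.55%). Rpl4 held 5, Rpl5 and Rpsa 3 each. The family was also short. The median transcript was 756 bases, against 2515 bases over all genes tested.

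In intact mice the core genes were abundant. Divided by transcript length, their mean level ran from 77.1 to 23148 normalised reads per kb, with a median of 10689 and quartiles of 7479 and 14235. The highest was Rpl41, whose product is the smallest ribosomal protein, at 23148 ± 1150 (SD, n = 6). Next came Rps15 of the decoding region at 20853 ± 621, Rpl26 at 19850 ± 671, Rpl3, which lies near the peptidyl transferase centre, at 19470 ± 696, and Rpl9 at 19150 ± 1146. From Rps15 to Rpl9 neighbouring genes in this order differed by less than the sum of their SDs. At the low end stood Rpl39 of the exit tunnel at 4141 ± 223 and Rpl35 at 3868 ± 231.

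**Figure D1:**
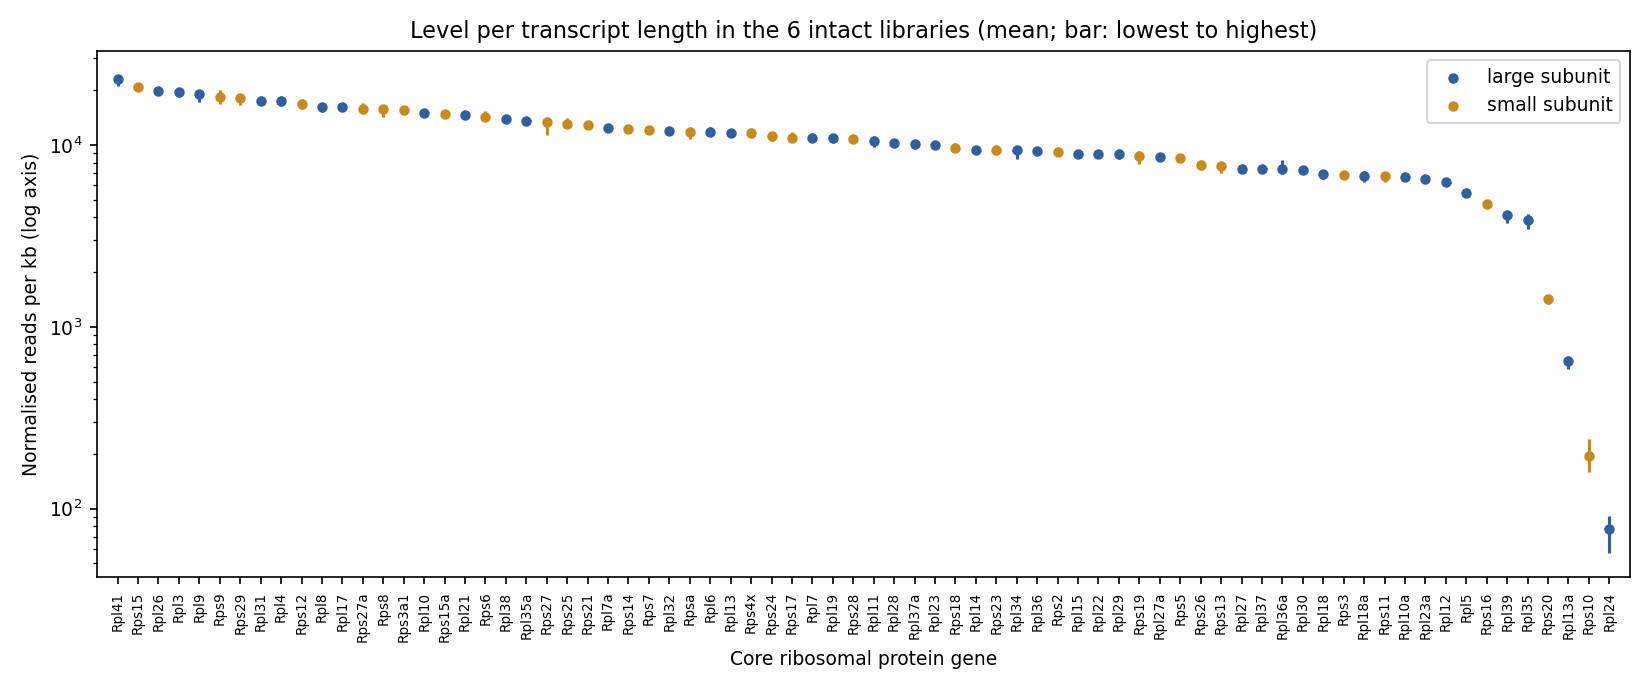
Mean level per transcript length of the 74 core genes in the 6 intact libraries, on a log axis, with bars from the lowest to the highest library and colours by subunit. The quartiles of the set are 7479 and 14235 reads per kb, and the levels drop steeply at Rps20, Rpl13a, Rps10 and Rpl24 on the right.

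The 4 lowest core genes stood far below the others. Rps20 had 1418 ± 66.5 reads per kb, on an annotated transcript of 3706 bases. Rpl13a had 649 ± 42.1, Rps10 195 ± 30.4 and Rpl24 77.1 ± 13.4. On the same strand, another annotated gene covers 59.3% of the exonic bases of Rpl13a (Gm45713), 91.6% of Rps10 (a readthrough gene with Nudt3) and 71.5% of Rpl24 (Gm28037). Whether reads in the shared bases were left unassigned was not tested. Gm45713 and Gm28037 were listed at 0 in all libraries. The values rest on 37 to 85 reads per library for Rpl24, 73 to 132 for Rps10 and 619 to 958 for Rpl13a. Overlap with a gene on the opposite strand covers 68.3% of the exonic bases of Rpl35, 55.4% of Rpl23a and 46.6% of Rpl5. The kit marks strand, but whether the counting used it is not given in the sources used here.

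The paralogues were far below their partners. Rpl22l1, the paralogue of Rpl22, had 2726 ± 187 reads per kb in intact against 8922 ± 280 for Rpl22. Rps27l had 1010 ± 123 against 13343 ± 1174 for Rps27. Rpl7l1, which takes part in assembly of the large subunit, had 1699 ± 72.4. Rpl3l, the form of heart and skeletal muscle, had 17.2 ± 2.75 against 19470 for Rpl3. Of the testis forms, Rpl10l was at 0 reads in all 18 libraries and Rpl39l between 0 and 9 reads. Among the pseudogene rows, Rps12l1 was at 0 reads throughout and Rpl32l between 0 and 6, and with the testis forms these were the 4 genes not tested. Rpl6l, Rps3a2 and Rps3a3 had 2 to 32 reads per library, while Rps4l had 832 to 1287. Rows ending in "-ps" or a number after it were 322 in all and added up to 0.225 to 0.410% of the summed level of the 86 genes.

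Taken as shares of all reads, the 86 genes made up 1.12 to 1.19% in intact (median 1.17%), 1.22 to 1.49% in AAV-GFP (median 1.23%) and 1.27 to 1.66% in AAV-SIRT3 (median 1.32%). Every AAV-GFP library and every AAV-SIRT3 library was above every intact one, and the groups with a vector overlapped each other. The library AAV-GFP 2 stood apart at 1.49%, with the other 5 of its group at 1.22 to 1.24%. AAV-SIRT3 5 and 6 stood apart at 1.47 and 1.66%, with the other 4 at 1.27 to 1.32%.

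The mean of log2(value + 1) over the 82 tested genes, less the mean of the intact libraries, gave the same picture. Intact libraries lay between −0.04 and 0.04. AAV-GFP libraries lay between 0.05 and 0.09 apart from AAV-GFP 2 at 0.34, and AAV-SIRT3 libraries between 0.16 and 0.19 apart from AAV-SIRT3 5 at 0.34 and AAV-SIRT3 6 at 0.52. Group means were 0.12 ± 0.11 (SD, n = 6) for AAV-GFP and 0.26 ± 0.15 for AAV-SIRT3. Without the 3 libraries that stood apart they were 0.07 ± 0.01 (n = 5) and 0.18 ± 0.01 (n = 4). These libraries were picked by the share itself, so the small SDs follow from that choice, and with all libraries AAV-GFP 2 lay within the range of AAV-SIRT3. The large-subunit and small-subunit means were alike, at 0.27 ± 0.15 and 0.25 ± 0.14 in AAV-SIRT3 libraries.

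**Figure D2:**
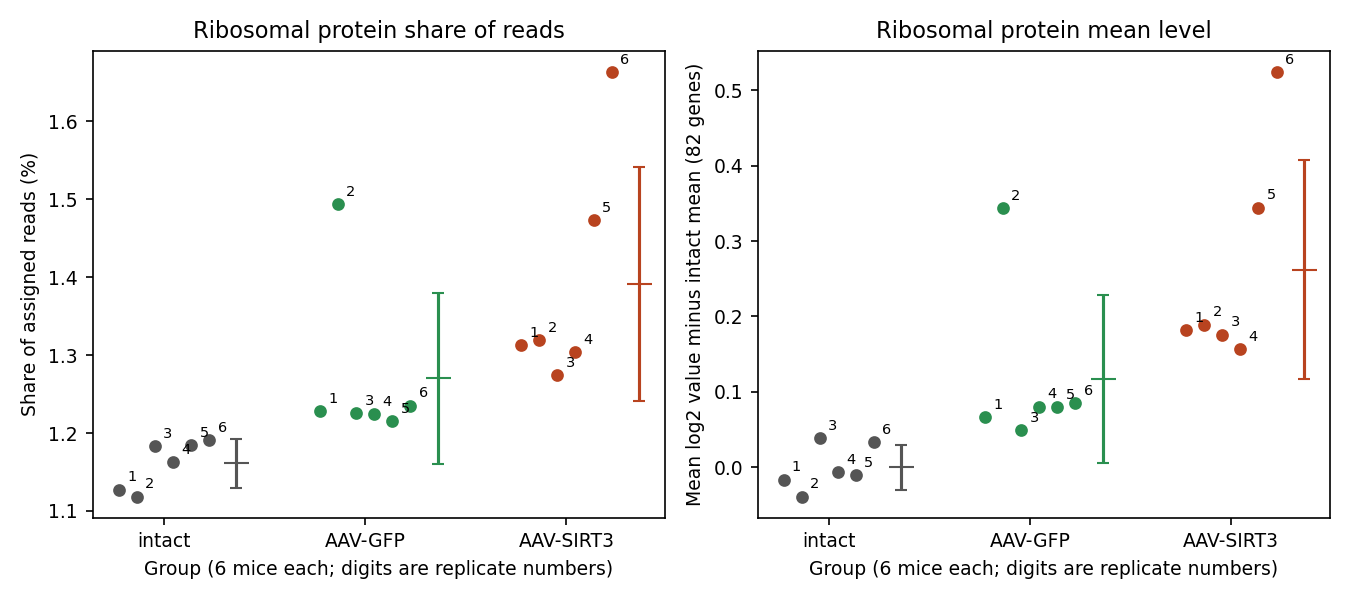
Share of assigned reads held by the 86 ribosomal protein genes (left) and their mean log2 level relative to intact (right), 1 point per library with its replicate number, and the group mean with SD. AAV-GFP 2, AAV-SIRT3 5 and AAV-SIRT3 6 are the 3 libraries above 1.4%.

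The same 3 libraries differed from the rest in how other genes varied with length. Each gene's log2 difference from its mean over all 18 libraries was set against transcript length, for tested genes outside the family. Spearman's rho between the 2 was 0.08 to 0.18 in intact libraries. It was −0.30 in AAV-GFP 2, −0.23 in AAV-SIRT3 5 and −0.30 in AAV-SIRT3 6, and −0.13 to 0.12 in the other 9 libraries with a vector. Short transcripts were thus relatively higher where ribosomal protein genes were highest. These correlations are across genes, which are not independent. After a trend with length and GC content was removed from each library, the family mean was 0.27 in AAV-GFP 2, 0.27 in AAV-SIRT3 5 and 0.42 in AAV-SIRT3 6. In the other 4 AAV-SIRT3 libraries it was 0.14 to 0.16 and in the other 5 AAV-GFP libraries 0.04 to 0.09. That trend was fitted over tested genes of all levels, with no term for level. A shift shared by abundant short genes could therefore remain after its removal.

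In AAV-SIRT3 against intact, 73 of the 82 tested genes were called higher and none lower (limma on log2(value + 1), Benjamini-Hochberg adjusted p under 0.05 over 19443 genes). The background was 11.3% of all genes called higher and 21.7% called in either direction. The median log2 fold change was 0.28, a rise of 21.7%, against −0.005 over all genes tested. In 63 of the 82 genes every AAV-SIRT3 library was above every intact library, which held for 5.01% of all genes. Core genes made up nearly all of the calls, with 42 of 43 for the large and 29 of 31 for the small subunit. Without AAV-GFP 2, AAV-SIRT3 5 and AAV-SIRT3 6, 70 genes were called higher (background 7.66%) and the median was 0.20.

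**Figure D3:**
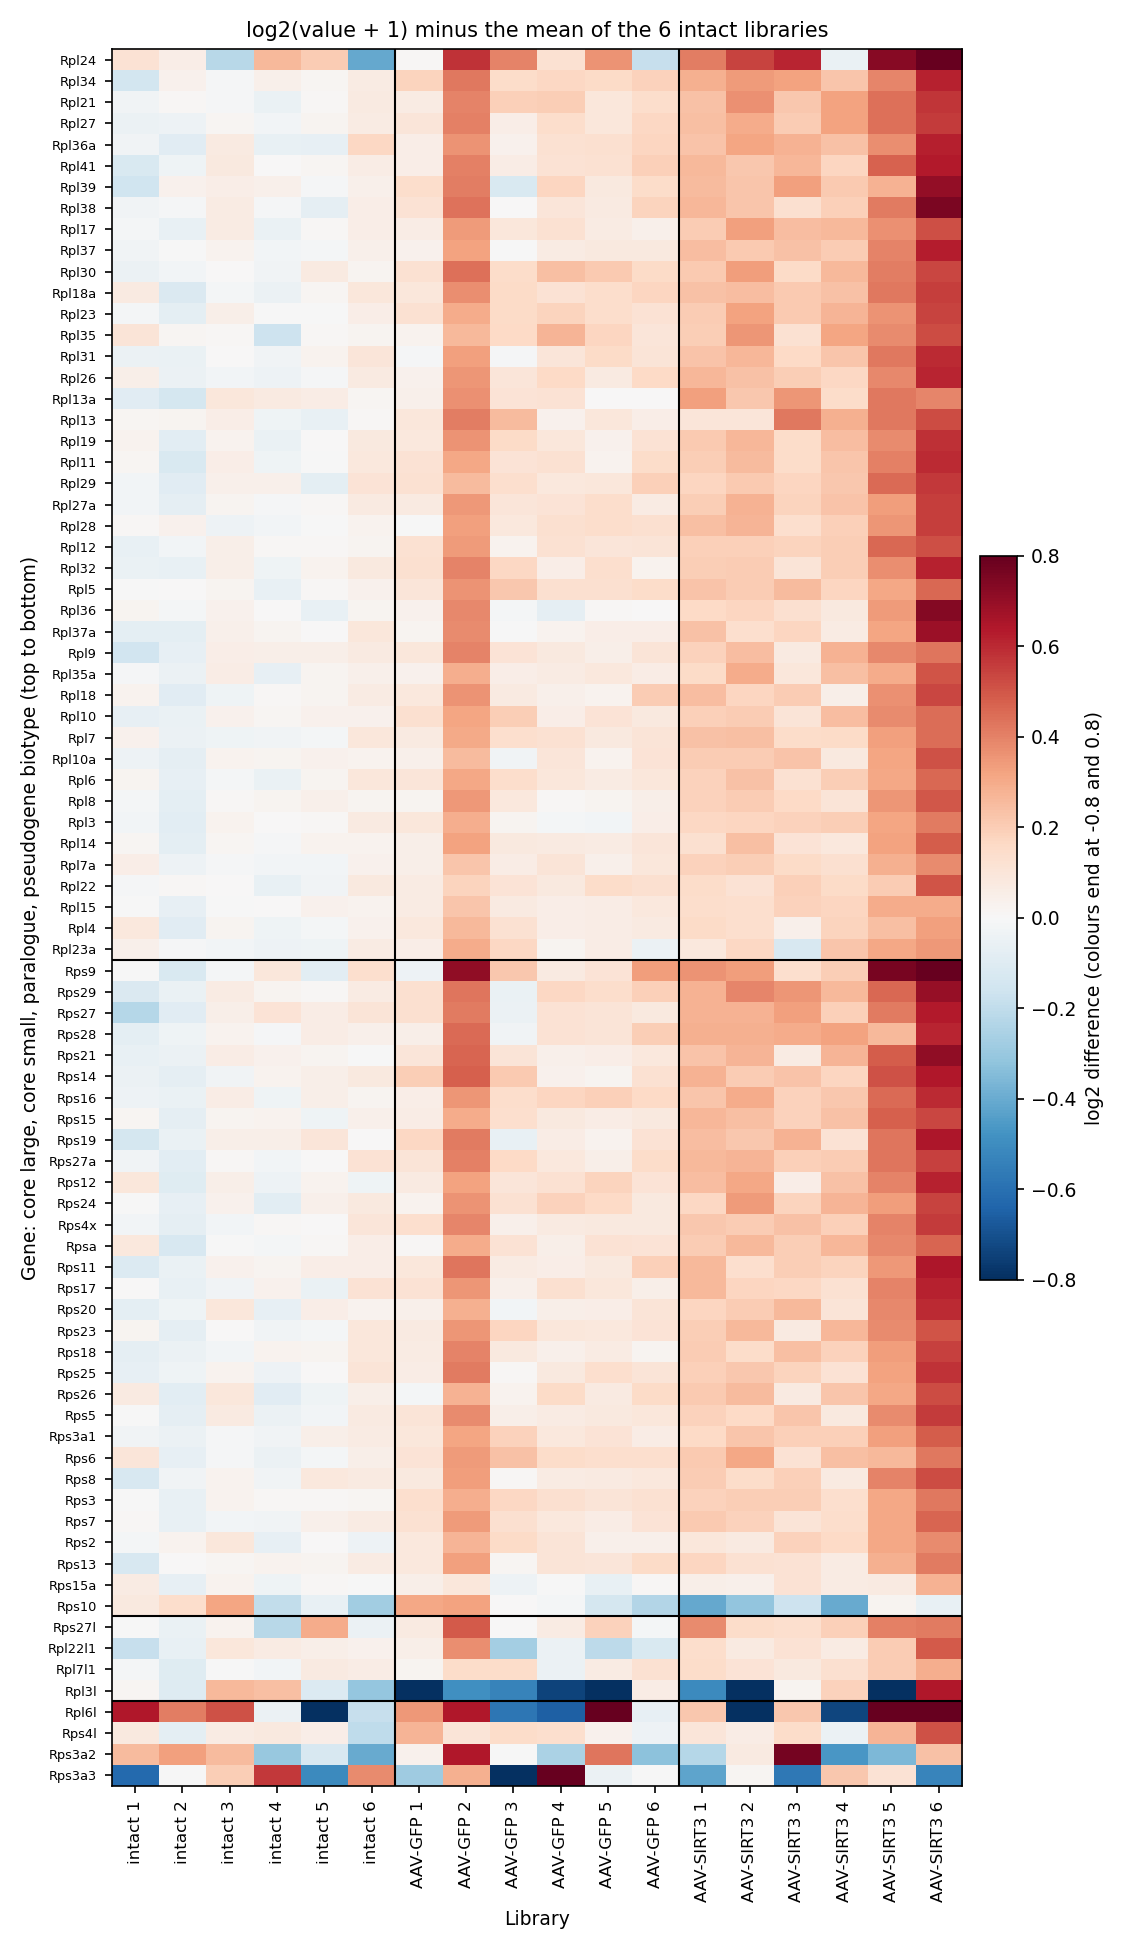
Difference of log2(value + 1) from the intact mean for the 82 tested genes (rows) in the 18 libraries (columns), with red for higher and blue for lower values. The columns AAV-GFP 2, AAV-SIRT3 5 and AAV-SIRT3 6 are red in nearly every core row, the other AAV-SIRT3 columns are paler red, and Rps10, Rpl3l and the pseudogene rows at the bottom do not follow.

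In the large subunit the log2 fold changes of core genes ran from 0.17 to 0.52, with a median of 0.30. Rpl5 and Rpl11 bind the 5S ribosomal RNA and, when free, the p53 regulator Mdm2. Rpl5 on chromosome 5 lay at 10634 to 11353 (median 11155) in intact, 11889 to 14216 (median 12219) in AAV-GFP and 12518 to 15292 (median 13139) in AAV-SIRT3 libraries. Both groups with a vector were above intact without overlap, and they overlapped each other. Its log2 fold change against intact was 0.27 ± 0.05 (SE, adjusted p = 0.000891). Rpl11 lay at 8110 to 9341 (median 8863) in intact and at 9774 to 13337 (median 10390) in AAV-SIRT3, again without overlap, and rose by 0.30 ± 0.06 (adjusted p = 0.00213).

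Rpl3 and Rpl4, long proteins that reach from the surface to the catalytic centre and the exit tunnel, had fold changes below the family median. Rpl3 went from 24756 to 27586 (median 26372) in intact to 29483 to 35114 (median 29972) in AAV-SIRT3, with no overlap and a log2 fold change of 0.24 (adjusted p = 0.003). Rpl4 lay at 25225 to 28498 (median 26913) in intact and 27630 to 33754 (median 30130) in AAV-SIRT3, and these ranges overlapped. It was called at 0.18 (adjusted p = 0.00882). Rpl10, which joins the large subunit last, rose from a median of 12238 (11504 to 12310) to 14066 (12901 to 16366), by 0.26 (adjusted p = 0.0019).

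Among the large-subunit genes with the largest rises were Rpl34, Rpl21, Rpl27 and Rpl36a. Rpl34 lay at 4048 to 4693 (median 4573) in intact and 5227 to 6865 (median 5641) in AAV-SIRT3, with no overlap and a log2 fold change of 0.36 ± 0.06 (adjusted p = 0.000629). Rpl21 lay at 12612 to 13730 (median 13080) and 15224 to 19449 (median 16620), again with no overlap, and rose by 0.36 (adjusted p = 0.000581). Rpl27 and Rpl36a each rose by 0.34. The largest fold change of all was that of Rpl24, which forms a bridge between the subunits, at 0.52 ± 0.18 (adjusted p = 0.0414). It rests on the few reads noted above, with 38.6 to 61.9 (median 54.6) in intact and 49.6 to 95.6 (median 77.2) in AAV-SIRT3. Those groups overlapped, and the call was lost when any of 8 libraries was left out in turn (adjusted p up to 0.0973).

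In the small subunit, Rps9 showed the widest spread in normalised reads. This protein sits at the mRNA entry site. It lay at 12657 to 15095 (median 13667) in intact and at 15116 to 24803 (median 17473) in AAV-SIRT3, so the groups met but did not overlap. The library AAV-GFP 2 had 22474 and AAV-SIRT3 5 had 23307, while the other 15 libraries besides AAV-SIRT3 6 ended at 17626. Its log2 fold change was 0.44 ± 0.12 (adjusted p = 0.0108). Rps29, a small zinc-binding protein, rose by 0.41 ± 0.07 (adjusted p = 0.000839), from 6514 to 7396 (median 7144) in intact to 8452 to 11422 (median 9130), with no overlap.

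Rps6, the target of S6 kinase, lay at 12022 to 13440 (median 12482) in intact, 13587 to 15918 (median 13899) in AAV-GFP and 13626 to 16856 (median 14972) in AAV-SIRT3 libraries. Every library with a vector was above every intact one. The rise against intact was 0.26 ± 0.05 (adjusted p = 0.00124). Rps27, Rps28 and Rps21 rose by 0.35, 0.34 and 0.34, and Rps19, which is mutated in Diamond-Blackfan anaemia, by 0.32 (adjusted p = 0.00587). Rps27a, fused to ubiquitin in its precursor, rose by 0.32 and Rpsa, once described as the laminin receptor precursor, by 0.30. Rps3 at the mRNA entry channel rose by 0.24 (adjusted p = 0.00115), with 12559 to 13342 in intact and 14360 to 17559 in AAV-SIRT3.

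The 9 genes not called higher were 3 core genes, 2 paralogues and the 4 tested pseudogene rows. Rps15a lay at 9005 to 9870 (median 9436) in intact and 9702 to 11402 (median 9884) in AAV-SIRT3, with overlap, at 0.10 (adjusted p = 0.0667). Rpl23a was at 0.17 (adjusted p = 0.0723). Rps10, whose ubiquitination marks stalled ribosomes, was lower in AAV-SIRT3, at 72.4 to 97.8 (median 81.5) against 79.3 to 120 (median 97.0), and this was within the spread of its few reads (−0.22 ± 0.14, adjusted p = 0.265). Rpl22l1 was at 0.18 (adjusted p = 0.150) and Rpl3l at −0.24 (adjusted p = 0.584), and the pseudogene rows lay between −0.20 and 0.19. The paralogues Rps27l and Rpl7l1 did rise, by 0.28 (adjusted p = 0.0328) and 0.16 (adjusted p = 0.0156). Rpl7l1 did so without overlap, at 2344 to 2717 against 2082 to 2340, and the ranges of Rps27l overlapped.

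**Figure D4:**
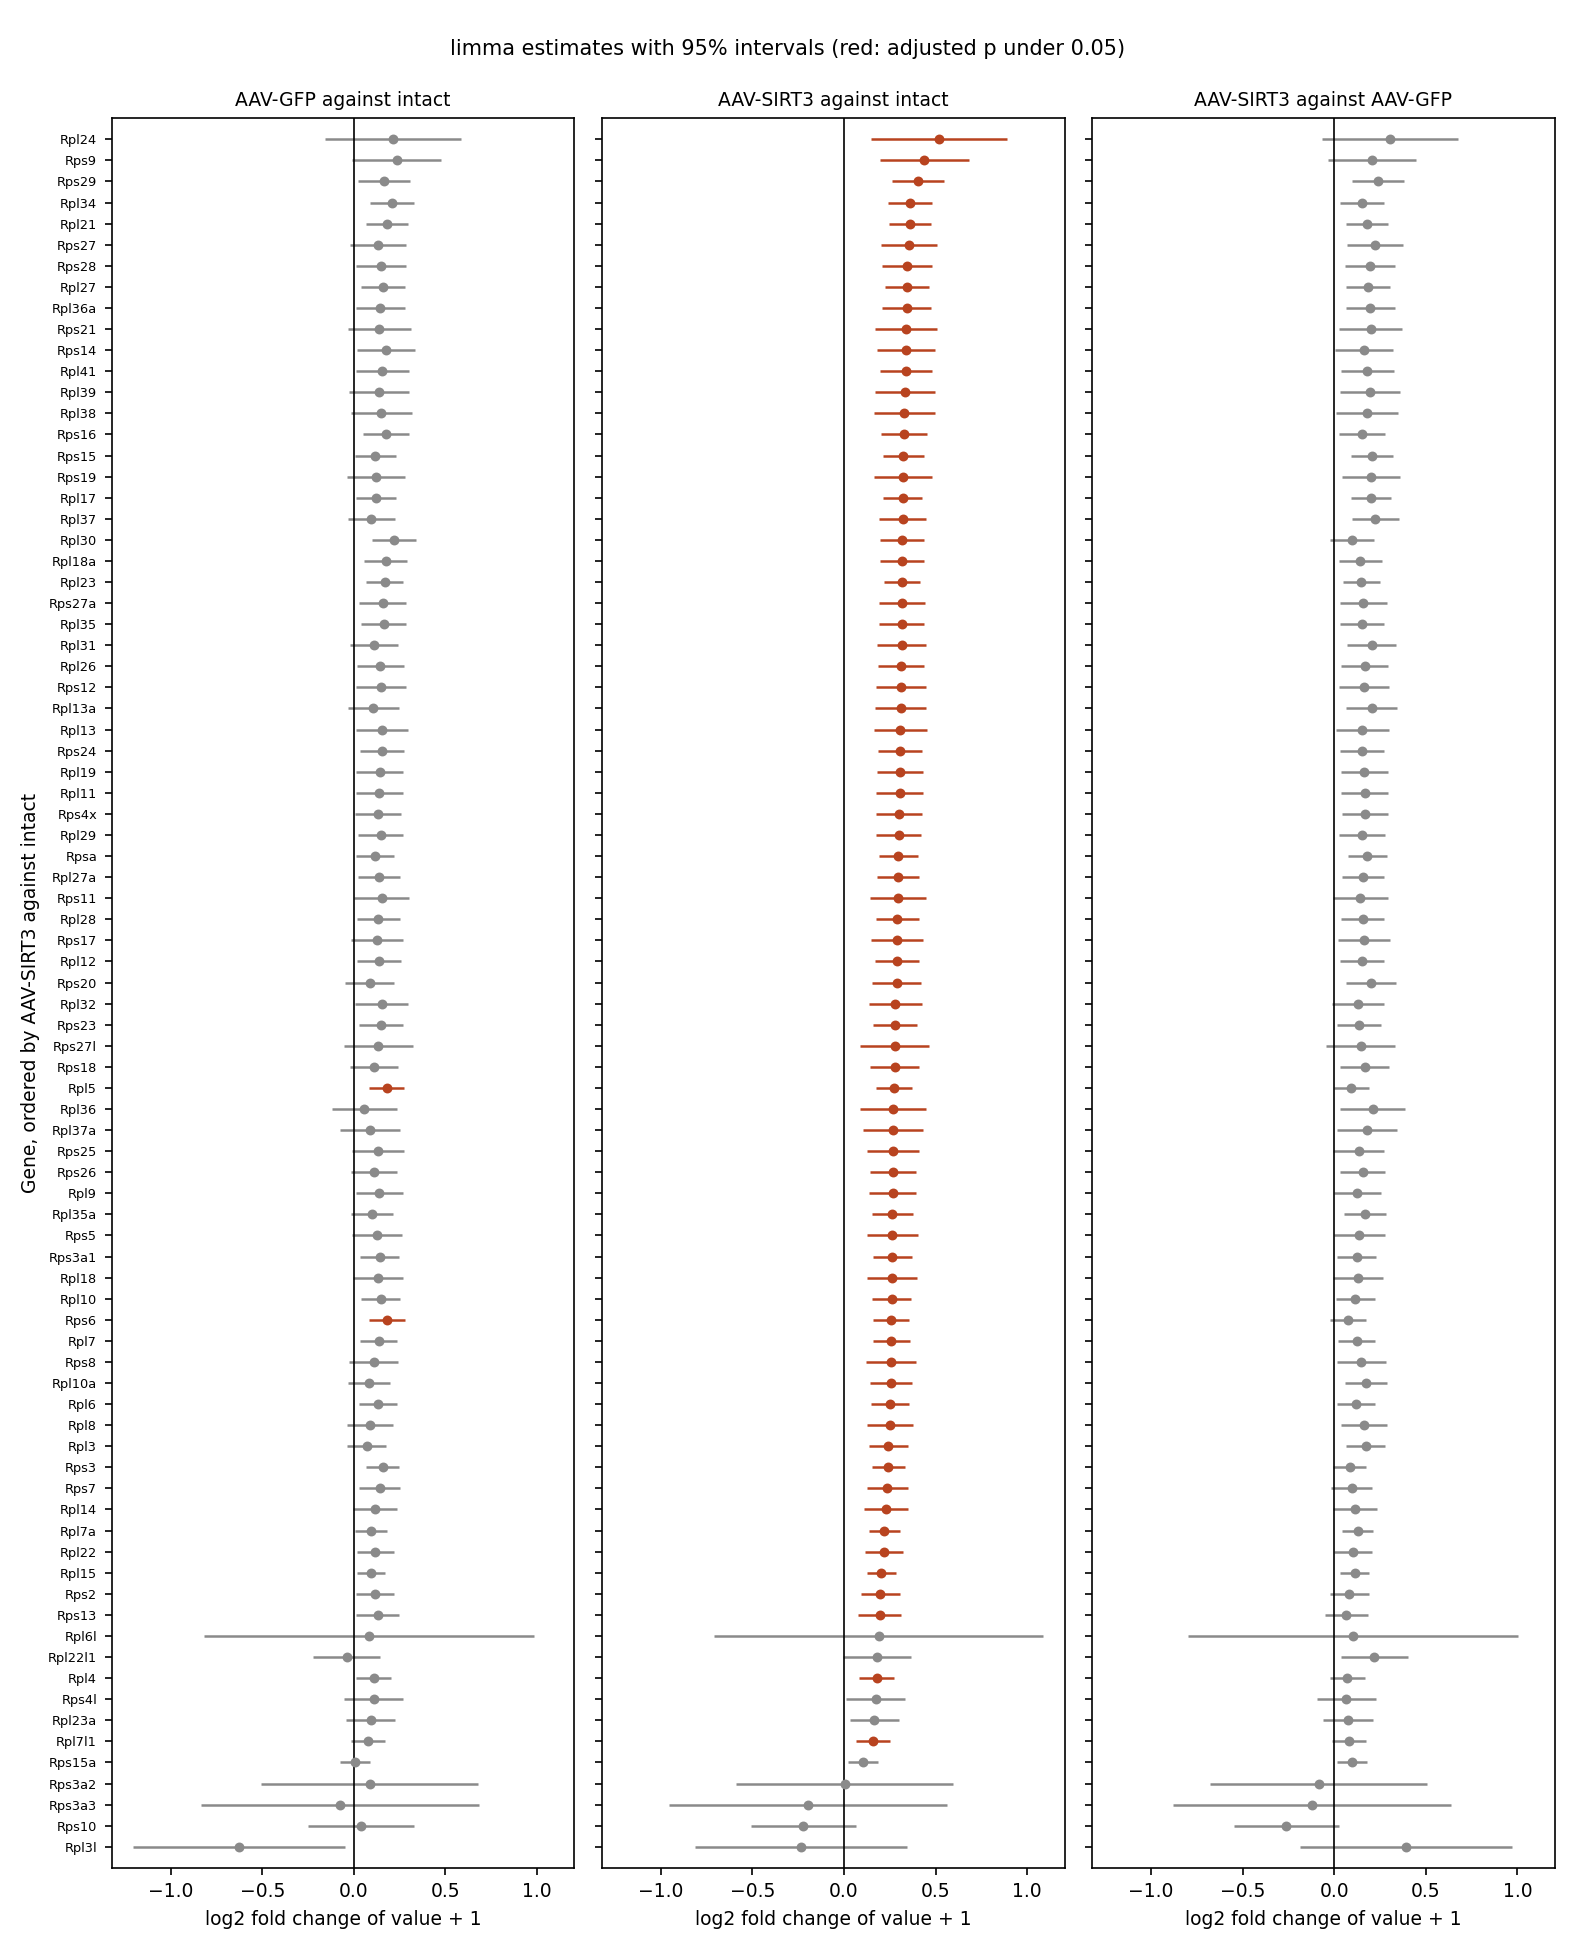
log2 fold change of each of the 82 genes with its 95% interval from limma in 3 comparisons, ordered by the middle panel, with red for an adjusted p under 0.05. In the middle panel 73 genes are red and to the right of 0, in the left panel Rps6 and Rpl5 are red, and in the right panel no gene is.

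With each library left out in turn, 70 to 74 of the 82 genes were called against intact. Of the 73, 70 were called in all 18 such fits and Rpl24, Rpl36 and Rps27l were not. With the thalamus marker score held constant 67 were called, beside a background of 4.68%. edgeR called 73 (background 10.2%), and limma called 70 after length and GC trends were removed (background 11.4%). Those trends had no term for level, so a shift shared by abundant short genes could remain in the last fit.

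Other short genes moved in the same direction where they were abundant. Over all genes outside the family, the median log2 fold change of AAV-SIRT3 against intact was 0.02 under 600 bases, with 122 of 1079 (11.3%) called higher, and 0.09 from 600 to under 900 bases, with 222 of 1145 (19.4%). Among genes outside the family with a mean value of 2000 or more and a transcript under 600 bases, the median was 0.27 and 57 of 72 (79.2%) were called higher, beside 0.30 and 25 of 28 (89.3%) in the family. From 600 to under 900 bases the values were 0.19 with 99 of 160 (61.9%) outside and 0.27 with 25 of 30 (83.3%) inside. From 900 to under 1500 bases they were 0.16 with 251 of 421 (59.6%) outside and 0.27 with 17 of 18 inside. From 1500 to under 3000 bases the median was 0.08 outside, with 31.2% of 1684 genes called, and the 5 family members of that length had a median of 0.27. The limit of 2000 was not applied to the family, whose bins also hold low genes such as Rps10 and Rpl24. The sets inside and outside thus differ in level. The level and length limits were chosen after the values had been seen. Within the 74 core genes, fold change and length had a Spearman rho of −0.32, and over 18773 other genes it was −0.25. Set against other genes with a mean of 2000 or more, the family's values lay closest below 600 bases. This did not hold against all other genes.

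**Figure D5:**
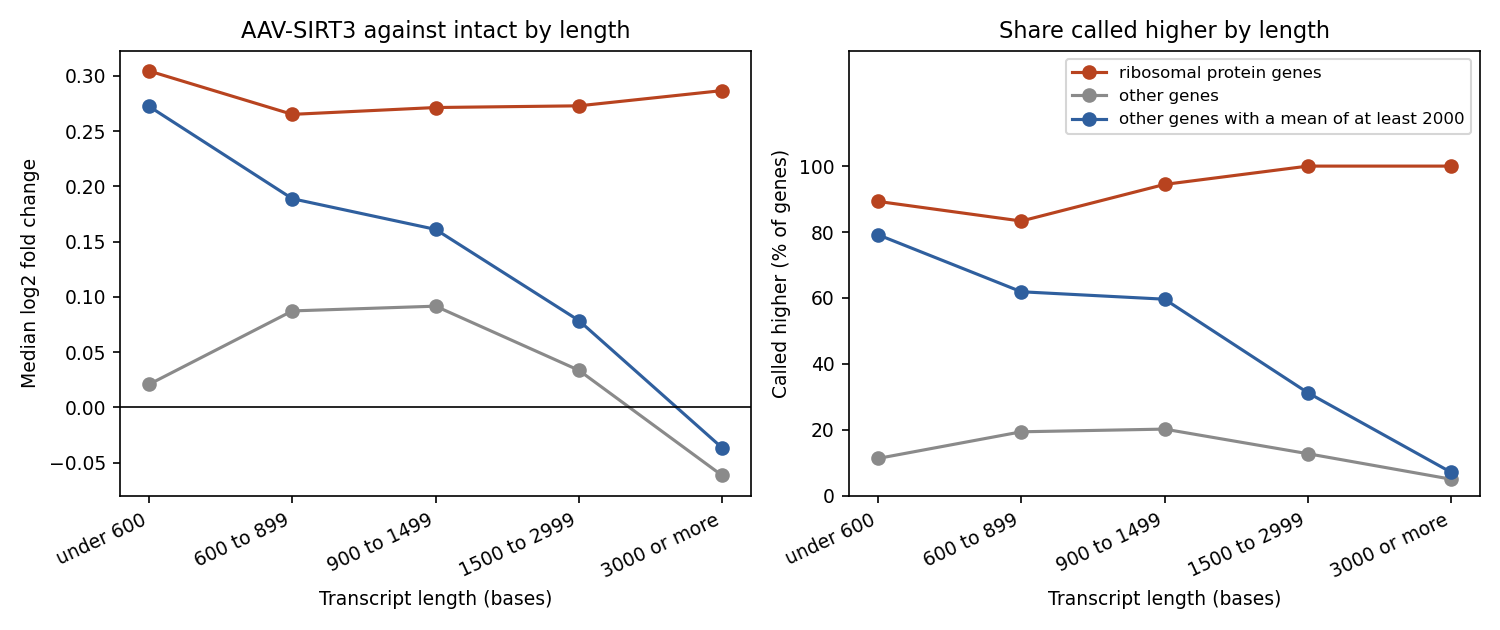
Median log2 fold change (left) and share of genes called higher (right) in AAV-SIRT3 against intact by transcript length. The sets are the ribosomal protein genes at any level, all other tested genes, and other genes with a mean of at least 2000. The family stays near 0.27 to 0.30 at all lengths, with 18 genes, 5 genes and 1 gene in the last 3 bins, and abundant other genes decline from 0.27 to −0.04.

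AAV-SIRT3 against AAV-GFP is the comparison in which both groups had a vector. No gene of the family was called, beside a background of 0.036% called higher (7 of 19443 genes) with limma. At an unadjusted p under 0.05, 55 of 82 were higher and none lower, against 8.13% of all genes higher. edgeR called 0 (background 0.0463%) and DESeq2 called 5, namely Rps29, Rpl37, Rps15, Rpl17 and Rpsa (background 0.761%). The median log2 fold change was 0.15 over the family and −0.004 over all genes, and 79 of 82 values were above 0. The largest differences of core genes were those of Rpl24 at 0.30 (adjusted p = 0.423) and Rps29 at 0.24 (adjusted p = 0.131).

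This result turned on AAV-GFP 2. Without that library, 35 genes were called higher (background 2.36%) and the median was 0.20. The 35 were 22 core genes of the large subunit, 12 of the small subunit and the paralogue Rpl22l1. Their log2 fold changes ran from 0.14 to 0.28 for the large and from 0.19 to 0.29 for the small subunit, and Rpl22l1 was at 0.30 (adjusted p = 0.0282). Rpl17 had the lowest adjusted p, 0.00991, at 0.24. With AAV-SIRT3 5 and 6 left out as well, 2 genes were called, Rpl37 at 0.17 and Rpl17 at 0.18 (background 0.0463%), and the median was 0.11. Without AAV-SIRT3 6 alone the median was 0.10 and no gene was called (background 0.0257%). After length and GC trends were removed from all libraries no gene was called either (background 0.0477%). In the values as deposited, from all libraries, the groups separated fully with AAV-SIRT3 higher in no gene of the family. This held for 0.37% of all genes.

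Rps29, described above, shows where these libraries lay. It lay at 6799 to 9477 (median 7841) in AAV-GFP and 8452 to 11422 (median 9130) in AAV-SIRT3, and only AAV-GFP 2 reached into the range of the other group. Its adjusted p was 0.0184 without AAV-GFP 2. Rps15 had 10848 to 12819 (median 10990) in AAV-GFP, with AAV-GFP 2 the highest, and 11863 to 15089 (median 12438) in AAV-SIRT3. Its log2 fold change was 0.21, with an adjusted p of 0.108 from all libraries and 0.0181 without AAV-GFP 2. Rps6 and Rpl5 differed less between these groups, at 0.08 (95% interval −0.02 to 0.17) and 0.09 (−0.003 to 0.19).

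In AAV-GFP against intact, 2 of 82 genes were called higher, Rps6 (0.18, adjusted p = 0.0489) and Rpl5 (0.18, adjusted p = 0.0496), beside a background of 0.823% called higher and 1.84% called in either direction. None was called lower. At an unadjusted p under 0.05, 45 were higher, against 9.59% of all genes, and 1 was lower, Rpl3l, at −0.63 (95% interval −1.21 to −0.05, adjusted p = 0.222) on 10 to 33 reads per library. The median was 0.13, against 0.001 over all genes, and 11 of 82 genes had no overlap between the groups, which held for 0.874% of all genes in this direction. Both calls stood close to the threshold. Rps6 stayed in 5 and Rpl5 in 4 of 18 fits that left out a library. edgeR called 0 genes (background 0.761%) and DESeq2 7 (background 2.3%). Without AAV-GFP 2, no gene was called (background 0.453%) and the median was 0.09. Without AAV-SIRT3 6, which enters through the shared estimate of the spread, 6 were called (background 1.11%). Without all 3 high libraries, 5 were called: Rpl5, Rpl30, Rpl34, Rps3 and Rpl23 (background 0.571%).

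Several genes near the threshold followed the same order. Rpl30 lay at 4044 to 4395 (median 4148) in intact and 4549 to 5675 (median 4732) in AAV-GFP, with no overlap, at 0.22 (adjusted p = 0.0522). Rpl34 was at 0.21 (adjusted p = 0.0617) and Rps3 at 0.16 (adjusted p = 0.0596), both also without overlap. Rps15a was at 0.01 (adjusted p = 0.956), with 9032 to 10017 in AAV-GFP and 9005 to 9870 in intact. The 2 comparisons with intact share the same 6 control libraries, so the values of a gene in them are given side by side and are not independent.

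To ask which genes moved apart from the family, the mean of the tested members was taken off in each library. In AAV-SIRT3 against intact this left 3 genes called: Rps10 at −0.48 (adjusted p = 0.0063), Rps15a at −0.16 (adjusted p = 0.0219) and Rps29 at 0.14 (adjusted p = 0.0256). On this scale 49.2% of all genes were called in either direction, and the family mean was taken off every gene. P-values were adjusted over all genes, so this share made the threshold on the unadjusted p looser than in the other comparisons. The numbers of calls in the 3 comparisons are therefore not at like thresholds. Rps10 is the gene with 73 to 132 reads per library and the readthrough overlap. Rps15a had no such overlap and was among the more abundant core genes, with 14728 ± 471 reads per kb in intact. In the other comparisons 0 genes were called (backgrounds 0.334% for AAV-SIRT3 against AAV-GFP and 0.355% for AAV-GFP against intact). Without intact 1, only Rps10 was called against intact, and without AAV-GFP 2 it was also called against AAV-GFP (−0.39, adjusted p = 0.0471). With all 3 high libraries left out, Rps10, Rps15a and Rps29 were called along with Rpl17, Rpl21, Rpl34 and Rps28.

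Within groups, the core genes varied together. For each core gene, the deviation from its group mean was correlated over the 18 libraries with the mean deviation of the other core genes. The median r was 0.92, and 46 of 74 genes had an r over 0.9. All points share the library and its scaling. Without the 3 high libraries the median r over 15 libraries was 0.50, so the correlation was weaker without those libraries. The lowest values among core genes were those of Rps10 (0.43), Rpl24 (0.48), Rpl35 (0.63), Rpl13 (0.69) and Rpl13a (0.70). Of these, Rps10, Rpl24 and Rpl13a overlap a gene on the same strand, Rpl35 overlaps one on the opposite strand and Rpl13 has no exonic overlap. Rpl5, Rpl30 and Rpl23a also overlap a gene on the opposite strand. Rpl5 and Rpl30 both had an r of 0.91, and Rpl23a had 0.72.

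Some ribosomal genes missed by the name rule were called higher in AAV-SIRT3 against intact (background 11.3%), namely Rplp1 (0.33, adjusted p = 0.00311), Rplp2 (0.30, adjusted p = 0.000936), Rplp0 (0.22), Fau (0.26) and Rack1 (0.22). Rpl36al, at a median of 28.7 in intact, was not called (0.20, adjusted p = 0.576). Of 16 other translation genes with a TOP tract 10 were called higher, with a median of 0.14, among them the elongation factor subunits Eef1b2 (0.22) and Eef1g (0.17) and the initiation factor subunits Eif3f (0.25) and Eif3h (0.15). Eef1a1, the most abundant of them, was at 0.07 (adjusted p = 0.186) and Eef2 at 0.08 (adjusted p = 0.173). Of 7 snoRNA host genes with a TOP tract 5 were called higher, including Gas5 at 0.30 (adjusted p = 0.000839) and Snhg8 at 0.31 (adjusted p = 0.00941), with a median of 0.25.

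Genes that build or control the ribosome had a lower median. Of 20 ribosome biogenesis genes 4 were called higher and 1 lower, with a median of 0.06, and this share is near the 21.7% of all genes called in either direction. The 4 were Nop10 (0.38, adjusted p = 0.000213) and Nhp2 (0.28), which are subunits of the pseudouridylation particle, the methyltransferase Fbl (0.19) and the polymerase I factor Ubtf (0.13). The 1 lower was Polr1a, the catalytic subunit of RNA polymerase I, at −0.16 (adjusted p = 0.003). Polr1a was also lower in AAV-GFP against intact (−0.16, adjusted p = 0.0224), and Nop10 was higher in AAV-SIRT3 against AAV-GFP (0.26, adjusted p = 0.0444). These were the list's calls in those comparisons. Of 15 genes of growth signalling, 2 were called higher, Rheb (0.15) and Eif2s1 (0.11), and 2 lower, Mtor (−0.13) and Tsc1 (−0.19), again near the share over all genes. Larp1, which binds the TOP tract, was at −0.01 (adjusted p = 0.863).

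Of 5 genes that respond to nucleolar stress through p53, Cdkn1a (0.48, adjusted p = 0.0199) and Ccng1 (0.25, adjusted p = 0.00185) were higher in AAV-SIRT3 against intact. Ccng1 was also higher in AAV-GFP against intact (0.21, adjusted p = 0.0335). Trp53, Mdm2 and Bbc3 lay between −0.01 and 0.003. In AAV-SIRT3 against AAV-GFP no gene of the TOP, snoRNA host, growth signalling or nucleolar stress lists was called by limma.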

How the data were processed

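Poly-A RNA of mouse substantia nigra was sequenced as paired reads with a strand-marking kit, per the labels' protocols. The submitters' processing notes name HISAT2 2.1.0, DESeq2 1.34.0 and mm10. Counting software and strand settings are not given in the sources used here. The authors deposited 1 table of normalised signal per gene and library. In all 18 columns 100% of the values are whole reads (within 0.0001 reads) divided by a size factor of 0.877 to 1.17, which matches the median-ratio factor recomputed from those reads. Log2(value + 1) was fitted with limma 3.58.1 in 1 model of 3 groups (R 4.3.3) with a trended prior, over the 19443 genes that reached 10 in 6 or more libraries. A call is a Benjamini-Hochberg adjusted p under 0.05. Nothing in the labels says that replicate numbers pair mice. The members and gene lists were chosen with earlier results of these data known. Lengths, overlaps and positions are from GENCODE M21, with the shortest of the best-ranked transcripts of each gene (APPRIS principal first), and start windows from RefSeq. Alternatives were TMM and quantile scaling, pseudocounts 0.5 and 10, filters, edgeR 4.0.16 and DESeq2 1.42.0 on recovered reads, fits of 2 groups, the replicate block, length and GC trends, the thalamus score and each library left out. Added after the data were seen were fits without AAV-GFP 2, AAV-SIRT3 5 and AAV-SIRT3 6 and the block on the family-relative scale. Members named are the 10 largest called rises and falls and the 3 largest and smallest changes per comparison, those called relative to the family, the 5 highest and 5 lowest per length, 22 of known role or paralogy, those with an outlying library and those not tested. Rpl35, Rpl23a, Rpl13, Rpl13a, Rpl15, Rps20, Rpl17, Rpl37, Rpl36 and Rpl23 were named after their values were seen. On simulated counts (19428 genes) the procedure called 30.8% of genes planted at 0.25 on the log2 scale in AAV-SIRT3 against intact, 81.2% at 0.5 and 93.9% at 1. P-values measure the spread between these mice. A gene of the list of ribosomal genes outside the name rule, and so that list's count, is not reported here.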

Additional observations from a re-analysis of the deposited data

Results flagged for a closer look

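In a group of 6 libraries, a value was picked out where its gap to the nearest other library exceeded Dixon's 95% limit relative to the spread from lowest to highest, which chance does in about 1 of 20 groups. Over the 82 tested genes, 56 of 246 groups were picked out, against 12.3 expected by chance if genes were independent, which they are not. AAV-GFP 2 was the highest in 42 of them, AAV-SIRT3 6 in 9, and intact 1 and intact 2 were the lowest in 2 and 3.

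AAV-GFP 2 stood above its group in the share of reads (1.49%), in the mean over the family (0.34 on the log2 scale) and in the means of the large (0.33) and small subunit (0.37). Among the large-subunit genes named in the text it was the high library for Rpl21 (17229), Rpl26 (13306), Rpl27 (5995), Rpl3 (32151), Rpl30 (5675), Rpl34 (6013), Rpl4 (32142) and Rpl9 (17141), in normalised reads. Among the small-subunit genes it was the high library for Rps15 (12819), Rps21 (7049), Rps27 (6125), Rps27a (13278), Rps3 (16010), Rps4x (14786) and Rpsa (23302), and for the paralogue Rps27l (703).

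AAV-SIRT3 6 was the high library of its group for Rpl22 (5979), Rpl22l1 (2113), Rpl36a (5451), Rpl39 (4130), Rps15a (11402) and Rps28 (4456). On the low side, intact 1 stood below its group for Rpl39 (2267) and intact 2 for Rps3 (12559).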

How the results depend on the processing

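In AAV-SIRT3 against intact, 67 to 74 members were called under the other settings and 70 to 74 with each library left out. Among all genes, 4.68% were called higher there with the thalamus score and 15.1% with a mean of at least 50. Over all alternatives the median was 0.20 to 0.32 in that comparison. It was 0.09 to 0.16 in AAV-GFP against intact and 0.10 to 0.20 in AAV-SIRT3 against AAV-GFP. The SD of the family mean between libraries was 0.11 in AAV-GFP and 0.15 in AAV-SIRT3. Without the 3 high libraries it was 0.01 in each of these groups. The 2 calls of AAV-GFP against intact became 0 with quantile scaling and with all genes above 0. They also became 0 with the thalamus score (background 0.165%) and with edgeR (background 0.761%). A pseudocount of 0.5 gave 1 (Rps6). A fit of only these groups gave 3 (Rps3, Rpl23 and Rpl30, without Rps6 and Rpl5). There were 4 with a mean of at least 50 (background 1.4%). Another 4 were called with length and GC trends removed (without Rpl5, background 1.42%). Calls numbered 5 without the 3 high libraries (background 0.571%), 7 with DESeq2 (background 2.3%), and 0 to 6 with each library left out. The 0 calls of AAV-SIRT3 against AAV-GFP became 2 without the 3 high libraries, 5 with DESeq2, and 0 to 35 with each library left out. Relative to the family mean, the 3 calls against intact became 6 with length and GC trends removed, 7 without the 3 high libraries and 1 to 4 with each library left out. On that scale AAV-GFP against intact went from 0 to 1 (Rpl22l1, lower) without the 3 high libraries, and AAV-SIRT3 against AAV-GFP to 0 or 1 with each library left out. The causes were not tested. Replicate numbers share no more than a number (correlations from −0.095 to 0.175, with 1 of 18 libraries closest to its own number). With the replicate block 1 member (Rpl30) was called in AAV-GFP against intact, 72 in AAV-SIRT3 against intact and 0 between the groups with a vector. With length and GC trends removed as well the block gave 3, 70 and 0, and on the family-relative scale it gave 2 calls against intact. Shares over all genes are not given here for the block or for the alternatives on the family-relative scale. Those counts thus have no background beside them. Low read numbers limit Rpl24, Rps10, Rpl3l, Rpl6l, Rps3a2 and Rps3a3.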
